A study of Mus musculus with 7 samples.

Results

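The loci of 10 genes for surface proteins of muscle stem cells (MuSCs) were followed in the ATAC-seq peaks of freshly isolated cells, out of the 21436 protein-coding genes for which a transcription start site (TSS) could be placed. They comprise the receptors Calcr and Cxcr4, the adhesion molecules Vcam1, Itga7, Itgb1, Cdh15 and Ncam1, the heparan sulfate proteoglycans Sdc3 and Sdc4, and the sialomucin Cd34. The locus of a gene was its RefSeq span on mm10 plus 20 kb on each side, and its promoter was the TSS ± 1 kb. The 10 loci held 116 of the 95163 regions obtained by merging the overlapping peaks of all libraries.

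There were 4 libraries from Nedd4L-cKO mice and 3 from WT mice, each of 5000 MuSCs sorted from the hindlimb muscles of male mice aged 5 to 6 weeks. The Nedd4L-cKO genotype is Nedd4L fl/fl Pax7 cre/+, in which Cre made by Pax7-expressing cells removes a floxed exon coding for a stretch of the catalytic domain of the ubiquitin ligase, while the gene is still transcribed. Cells were gated as ITGA7+/Hoechst+/CD31-/CD45-/CD11b-/SCA1-, so the product of Itga7, itself among the 10 genes, was the antigen of the positive gate in both genotypes. The comparison asks whether loss of the ligase alters accessibility at these loci before the cells are cultured. The paper names as a limitation that the deletion also reaches differentiated myofibers. Loss in the MuSC and loss in the fiber therefore cannot be told apart. Whether the WT mice carried Cre is not stated.

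ATAC-seq marks chromatin that the Tn5 transposase can reach, and a peak is a stretch where its cuts exceed the local background. MuSCs lie between the muscle fiber and its basal lamina, and their surface proteins hold them there, receive signals of quiescence and serve to sort them. CALCR receives collagen V and calcitonin signals that keep MuSCs quiescent, CXCR4 binds the chemokine CXCL12, and VCAM1 pairs with integrins on neighbouring cells. ITGA7 and ITGB1 form the laminin receptor of the muscle lineage, M-cadherin (Cdh15) joins MuSCs to the fiber, syndecans present growth factors, and CD34 is a mucin of quiescent MuSCs.

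The libraries kept between 14.4 M and 20.1 M tags after duplicates were removed and held between 69302 and 79158 peaks each. WT replicate 3 was sequenced on lane 2 and the other 6 libraries on lane 1. The promoters of 4 of 4 MuSC genes (Pax7, Myf5, Myod1 and Des) had a peak in all 7 libraries, and those of the 4 antigens of the negative gate (Pecam1, Ptprc, Itgam and Ly6a) had none in any library. Of the lists of markers of other cell types reported here, which are not a full check of purity, promoter peaks in all 7 libraries were found for 1 of 4 endothelial genes (Kdr), 0 of 5 immune, 0 of 3 fibro-adipogenic, 1 of 3 mural (Myh11) and 2 of 3 muscle fiber genes (Acta1 and Mylpf). In these lists the fibro-adipogenic Dcn and the muscle fiber gene Ckm had one in 5 libraries each, and the mural Rgs5 and Notch3 in 1 each. In such bulk libraries, more cells with an open site and more cuts per open cell cannot be told apart.

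RefSeq promoter windows on GRCm38.p6, the assembly of mm10, were held for 7 of the 10 genes, and 5 windows of 4 genes are shown because their peaks span the range of values described below. Each window runs 5′ to 3′ on the gene's strand from 250 bases before to 50 after the start. Capitals mark E-boxes (CANNTG, the letters that MyoD-family factors can bind) and GC boxes (GGGCGG on either strand). The windows are both annotated Calcr starts (minus strand, chr6:3763574-3763873 and chr6:3764664-3764963), Itgb1 (plus strand, chr8:128685404-128685703), Cdh15 (plus strand, chr8:122848124-122848423) and Cd34 (plus strand, chr1:194938571-194938870).
Calcr, downstream start: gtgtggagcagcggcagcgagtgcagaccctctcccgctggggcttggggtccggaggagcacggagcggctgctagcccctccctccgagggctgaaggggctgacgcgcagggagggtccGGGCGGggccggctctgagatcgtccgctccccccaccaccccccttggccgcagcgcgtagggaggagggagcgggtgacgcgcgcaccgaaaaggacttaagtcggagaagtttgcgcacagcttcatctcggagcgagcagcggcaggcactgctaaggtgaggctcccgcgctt
Calcr, upstream start: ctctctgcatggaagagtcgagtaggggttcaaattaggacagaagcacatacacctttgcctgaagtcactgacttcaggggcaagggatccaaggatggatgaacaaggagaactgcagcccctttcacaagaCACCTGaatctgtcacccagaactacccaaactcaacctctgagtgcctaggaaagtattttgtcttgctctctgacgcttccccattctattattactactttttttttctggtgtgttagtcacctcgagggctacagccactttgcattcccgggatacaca
Itgb1: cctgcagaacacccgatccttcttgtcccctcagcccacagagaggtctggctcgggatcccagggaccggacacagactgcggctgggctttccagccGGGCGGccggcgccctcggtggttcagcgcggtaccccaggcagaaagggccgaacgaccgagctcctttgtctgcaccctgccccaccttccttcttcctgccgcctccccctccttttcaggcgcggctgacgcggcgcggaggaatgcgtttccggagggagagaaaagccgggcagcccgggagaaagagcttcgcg
Cdh15: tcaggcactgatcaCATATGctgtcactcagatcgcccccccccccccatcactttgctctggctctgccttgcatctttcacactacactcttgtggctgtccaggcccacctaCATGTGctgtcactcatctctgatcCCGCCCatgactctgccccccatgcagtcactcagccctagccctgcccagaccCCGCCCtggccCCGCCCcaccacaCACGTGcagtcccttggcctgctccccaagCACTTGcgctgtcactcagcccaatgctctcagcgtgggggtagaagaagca
Cd34: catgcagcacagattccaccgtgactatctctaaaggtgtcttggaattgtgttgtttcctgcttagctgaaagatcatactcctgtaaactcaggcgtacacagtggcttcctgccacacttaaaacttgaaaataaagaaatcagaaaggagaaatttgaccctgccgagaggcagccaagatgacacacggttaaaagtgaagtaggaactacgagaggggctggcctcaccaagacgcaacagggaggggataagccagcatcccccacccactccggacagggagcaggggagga

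A GC box was found in 6 of the 8 windows held, against 35.9% of all 32544 windows in the RefSeq table, and an E-box in 2 of 8, against 72.3%. The 2 windows with an E-box were the upstream start of Calcr, with 1, and Cdh15, with 4. Cdh15 also held 3 GC boxes, while the Cd34 window held neither motif. None of the 8 windows held the E-box CAGCTG (16.4% of all windows), the AP-1 site TGANTCA (7.79%) or a homeodomain palindrome of TAAT arms set 2 bases apart (0.393%). CCAAT was found in 1 of 8 windows (37.4% of all), that of Cdh15, and TATAAA in 1 of 8 (13.6% of all), that of Cxcr4, where it matched at 2 overlapping places. The GC content of the windows ran from 47.3% at the upstream start of Calcr to 77.7% at Sdc3, against a median of 53.0% over all windows. These letter matches describe the windows and do not show that a factor binds.

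All 10 promoters had a peak in all 7 libraries, while 59.7% of the protein-coding genes did. At a -log10 q of at least 5, 6 of the 10 promoters were still called in all 7 libraries, while Cdh15 and Cd34 were called in 6, Itga7 in 3 and Sdc3 in 0; of the protein-coding genes, 50.1% were called in all 7 at that threshold. In another setting the same number of peaks was taken from every library, those of highest fold enrichment (defined below). There 6 of the 10 were called in all, against 57.3%. Sdc3 was then called in 6 libraries, Cxcr4 in 4, Itga7 in 3 and Cdh15 in 2. This cut drops peaks of low fold first, whatever their pileup. Within a library, each peak was given a percentile, from 0 for its lowest to 100 for its highest peak, by pileup (how many extended tags cover an average base of the peak) and by fold enrichment (pileup over the local background). Where a promoter overlapped several peaks, the one of highest pileup was taken. The plot of promoter percentiles gives every library.

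**Figure D1:**
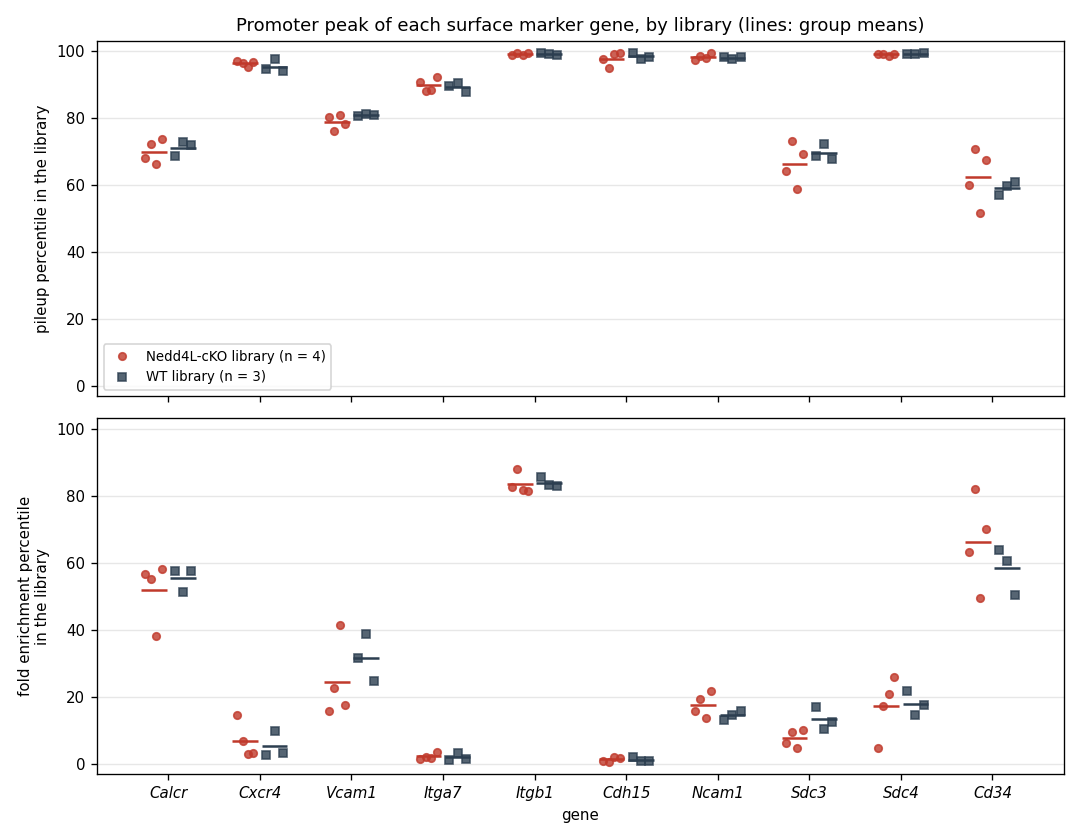
Percentile of the promoter peak of each of the 10 genes among all peaks of its library, by pileup (top) and by fold enrichment (bottom), with 1 point per library (Nedd4L-cKO, n = 4; WT, n = 3) and a line at each group mean. The Cdh15, Itga7 and Cxcr4 points lie near the top by pileup and near the bottom by fold, and only the Sdc3 fold percentiles do not overlap between the genotypes.

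By pileup the promoters fell into an upper set of 5 genes and a lower set. The median percentile over the 7 libraries was 99.0 at Sdc4, 99.0 at Itgb1, 98.2 at Ncam1, 98.1 at Cdh15 and 96.3 at Cxcr4, and neighbours in this order overlapped between libraries. Itga7 followed at 89.3, Vcam1 at 80.6 and Calcr at 71.8, each with all 7 libraries below those of the gene before it. Sdc3 (68.6) and Cd34 (60.0) came last, and Calcr, Sdc3 and Cd34 overlapped with their neighbours. The median over the 10 genes was 92.8, and that over the 12803 promoters with a peak in all libraries was 86.6.

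By fold enrichment the order was another. Itgb1 stood highest, with a median percentile of 82.9, followed by Cd34 at 63.3, Calcr at 56.8 and Vcam1 at 24.8. Sdc4 (17.5), Ncam1 (15.8), Sdc3 (10.1), Cxcr4 (3.41), Itga7 (1.83) and Cdh15 (0.979) lay below. No neighbours in this order were separated in all libraries. Thus 7 of the 10 promoters lay under the 25th percentile by fold, against 8.08% of the 12803 promoters, and the median over the 10 genes was 16.6 against 79.3. This was not particular to surface genes. The MuSC genes Pax7, Myf5, Des and Myod1 had median fold percentiles of 7.42, 5.25, 26.6 and 35.5, beside pileup percentiles of 85.8, 87.1, 95.7 and 97.1.

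Pileup divided by fold approximates the local background of a peak and is not the exact value that the peak caller used. The percentile of this ratio among the peaks of a library had a median of 99.8 at the Cdh15 promoter, 99.5 at Sdc4, 99.3 at Ncam1, 99.2 at Cxcr4 and 98.5 at Itga7. At Cd34 it was 58.9 and at Calcr 73.6. The 9 genes other than Cd34 ranked higher by pileup than by fold, as did 58.5% of the 12803 promoters. These values all come from 1 ratio and are a description without a test.

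The receptor Calcr had its promoter region at chr6:3763265-3765264, a stretch of 2000 bp that takes in both annotated starts printed above. The peak covered the window of the downstream start whole in 7 of 7 libraries and that of the upstream start in 2, with partial overlap in the other 5. Its pileup percentiles were 67.9, 72.1, 66.1 and 73.6 in the Nedd4L-cKO libraries, and 68.6, 72.7 and 71.8 in the WT libraries. Its fold percentiles were 56.8, 55.1, 38.2 and 58.1 in Nedd4L-cKO and 57.7, 51.4 and 57.6 in WT, so Nedd4L-cKO replicate 3 lay lowest and the groups overlapped by both measures. The locus, chr6:3685678-3764713 plus its flanks, held 7 regions, and 3 of them were called in every library. The strongest region outside the promoter lay in the gene body, 22.8 kb from the TSS at chr6:3741078-3742814, with pileup percentiles of 83.5, 82.2, 79.4 and 86.8 in Nedd4L-cKO and 87.4, 80.3 and 83.5 in WT. It stood above the promoter by pileup in all 7 libraries.

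Cxcr4, whose span of 4.10 kb lies at chr1:128588199-128592299, had a single region called in every library, its promoter region at chr1:128590806-128593552. The promoter peak had pileup percentiles of 96.9, 96.3, 95.3 and 96.6 in Nedd4L-cKO and 94.4, 97.4 and 93.9 in WT. The fold percentiles were 14.8, 7.04, 2.92 and 3.21 in Nedd4L-cKO and 2.68, 10.0 and 3.41 in WT, and the groups overlapped by both. The peak was short in 3 libraries (1531, 1640 and 1970 bp) and longer in the other 4 (2589 to 2710 bp), and the short calls had the highest fold percentiles. Neither of the other 2 regions of the locus was called in more than 3 libraries.

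Vcam1, the ligand of integrin alpha4 and alpha9 subunits, spans chr3:116110020-116129688. Its promoter peak had pileup percentiles of 80.2, 76.2, 80.8 and 78.1 in Nedd4L-cKO and 80.6, 81.1 and 80.8 in WT. A gene body region 3.12 kb from the TSS, at chr3:116126001-116127133, stood at 89.0, 80.3, 77.8 and 85.9 in Nedd4L-cKO and 84.2, 77.2 and 82.2 in WT, about level with the promoter. A further gene body region, 15.3 kb from the TSS at chr3:116113560-116115259, was at 51.3, 50.6, 56.1 and 56.2 in Nedd4L-cKO and at 45.7, 43.0 and 39.6 in WT. There the pileup ranks of the genotypes did not overlap, with all 4 Nedd4L-cKO libraries above all 3 WT libraries. It was the only 1 of the 71 regions called in all libraries of the 10 loci without overlap by pileup, as were 3.6% of all such regions.

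The laminin receptor genes differed in form. Itgb1 (chr8:128685654-128733579), the beta subunit shared by many integrins, was the only one of the 10 genes whose promoter stood above the 80th percentile by both measures in all 7 libraries. Its fold percentiles were 82.6, 88.1, 81.7 and 81.3 in Nedd4L-cKO and 85.7, 83.1 and 82.9 in WT, with pileup percentiles between 98.7 and 99.4. In its locus 4 of 9 regions were called in all libraries, and the strongest outside the promoter was 46.5 kb into the gene, with a median pileup percentile of 72.7.

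Itga7 (chr10:128933421-128958286), the alpha subunit used in the sort, had the densest locus, with 21.1 peaks per 100 kb. Its promoter peak lay inside the gene, within the region chr10:128933619-128934600, and was the shortest of the 10, with a median of 648 bp. Its pileup percentiles were 90.7, 88.1, 88.4 and 92.1 in Nedd4L-cKO and 89.3, 90.3 and 87.6 in WT, while its fold percentiles were 1.68, 2.11, 1.83 and 3.59 in Nedd4L-cKO and 1.2, 3.26 and 1.63 in WT. The locus held 13 regions called in all 7 libraries, and 2 of these overlapped the promoters of the neighbours Rdh5 and Bloc1s1. The Bloc1s1 region, at chr10:128921654-128923795, was the strongest of the locus and had a median pileup percentile of 99.97 and a median fold percentile of 3.23.

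Cdh15 (chr8:122848374-122867397) joined the highest background to the lowest fold of the 10 promoters. The pileup of its promoter peak was 58.25, 47.03, 65.52 and 75.17 in Nedd4L-cKO and 71.01, 59.37 and 57.39 in WT, with percentiles from 94.8 to 99.3. The fold enrichment was 2.15, 2.10, 2.31 and 2.19 in Nedd4L-cKO and 2.27, 2.10 and 2.2 in WT, and the groups overlapped by both measures. The peak was called as 1 stretch of 4009 to 4112 bp in Nedd4L-cKO replicates 3 and 4 and in WT replicate 1, and as a shorter peak of 1370 to 1645 bp in the other 4 libraries. Both forms thus occurred in both genotypes, and all belonged to the merged region chr8:122848124-122852246. In the 4 libraries with the shorter peak, that region also took in a stronger peak beyond the promoter window. The highest pileup percentiles of the region were there 99.63 and 99.34 in Nedd4L-cKO replicates 1 and 2, and 99.51 and 99.60 in WT replicates 2 and 3. The window printed above, with its 4 E-boxes, was covered whole by a peak in 1 library and in part in the other 6. The 3 other shared regions of the locus were flank regions with median pileup percentiles of 32.1 to 57.6.

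Ncam1 (chr9:49502129-49799393), a cell adhesion molecule of nerve and regenerating muscle, has the longest span of the 10 genes, 297 kb, and held 37 regions, 22 of them called in all libraries. Its promoter peak lay just inside the gene, in the region chr9:49796508-49799189, with pileup percentiles between 97.1 and 99.2. Its fold percentiles were 15.9, 19.3, 13.7 and 21.9 in Nedd4L-cKO and 13.2, 14.7 and 15.8 in WT, and overlapped. The 16 gene body regions shared by all libraries spread over the span. The strongest shared region outside the promoter was 6.50 kb into the gene, at chr9:49792655-49793139, with percentiles of 93.2, 93.6, 89.5 and 94.8 in Nedd4L-cKO and 93.3, 90.5 and 95.4 in WT, so the groups overlapped. A region of the downstream flank overlapped the promoter of Ttc12.

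The syndecans stood apart from each other. At Sdc4 (chr2:164424247-164443188), 5 of the 7 shared regions had median pileup percentiles above 92, led by a gene body region 10.6 kb from the TSS at chr2:164431771-164433499 with 99.8. Its promoter peak had pileup percentiles between 98.5 and 99.4 and fold percentiles of 4.72, 17.4, 20.9 and 26.0 in Nedd4L-cKO and 21.9, 14.8 and 17.5 in WT, where the Nedd4L-cKO libraries enclosed the WT libraries. At Sdc3 (chr4:130792537-130826318), the 7 shared regions had medians from 46.4 to 77.5, and the highest was a gene body region 12.7 kb from the TSS at chr4:130804435-130806090. Of the 11 regions of the Sdc4 locus, 2 in the flanks overlapped the promoter of another gene, while 0 at Sdc3 did. The Sdc3 promoter peak had the lowest median significance of the 10, with a -log10 q between 2.56 and 4.89. The ranges of Itga7 (from 4.21), Cdh15 (from 4.28) and Cd34 (from 4.66) overlapped with it.

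The Sdc3 promoter was the only one of the 10 whose fold percentiles did not overlap between the genotypes, as did those of 5.78% of the 12803 promoters. They were 6.23, 9.72, 4.82 and 10.1 in Nedd4L-cKO and 17.1, 10.5 and 12.6 in WT, with all 4 Nedd4L-cKO libraries below all 3 WT libraries. The pileup percentiles were 64.2, 73.1, 58.8 and 69.2 in Nedd4L-cKO and 68.6, 72.3 and 67.8 in WT, and overlapped. In the limma fit described below, the shift of this promoter region was -0.29 ± 0.17 (SE), with an unadjusted p of 0.129 and an adjusted p of 1.00.

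Cd34 (chr1:194938821-194961292) had the lowest promoter of the 10 by pileup and the second highest by fold. The pileup percentiles were 60.0, 70.7, 51.6 and 67.3 in Nedd4L-cKO and 56.9, 59.8 and 60.9 in WT, and the wider spread of the Nedd4L-cKO libraries enclosed the WT libraries. Its strongest shared region lay 38.1 kb from the TSS in the downstream flank, at chr1:194975960-194977800, with pileup percentiles of 91.7, 97.0, 93.9 and 94.7 in Nedd4L-cKO and 94.7, 96.1 and 95.8 in WT. This flank region stood above the promoter in all 7 libraries.

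**Figure D2:**
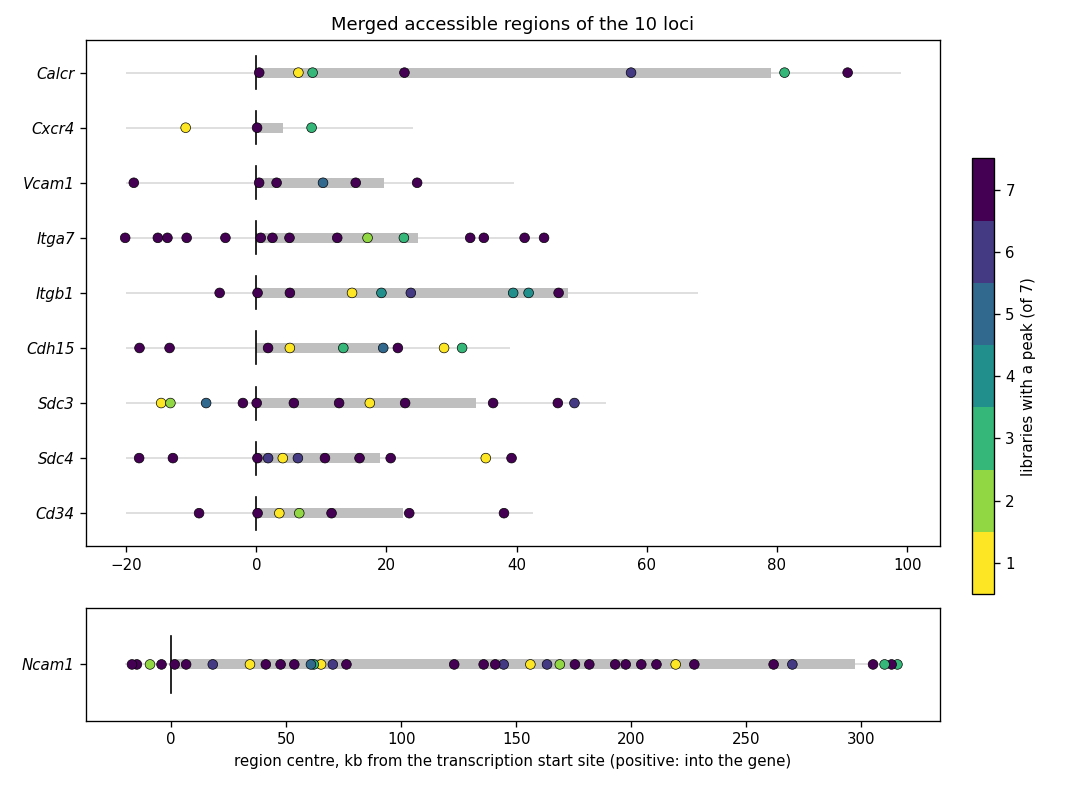
Centres of the 116 merged regions, in kb from the TSS of each gene (0, black tick) with positive distances towards the gene's end, where grey bars are gene spans and thin lines the 20 kb flanks; Ncam1 has its own axis. Color gives the number of libraries with a peak: the 10 promoters were called in all 7, and most regions called in 1 library lie in gene bodies.

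Most regions of the loci were shared by all libraries, as were most regions of the whole series. Of the 116 regions, 71 were called in all 7 libraries (61.2%), while 56.0% of all merged regions were. These were 10 promoter regions, 30 of 62 gene body regions, 16 of 21 upstream and 15 of 23 downstream flank regions, and 5 of the flank regions overlapped the promoter of another gene. A further 31 regions were called in 2 to 6 libraries and 14 in 1 (12.1%, against 14.7% of all regions). At a -log10 q of at least 5, 28 of 62 regions were called in all libraries, against 51.5% of all regions. With equal numbers of peaks 54 of 113 were, against 53.7%. In both settings the share in the loci was thus below that of all regions. Whether these regions lie in exons or introns was not analysed here.

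No region of the 10 loci was called in all libraries of one genotype and in none of the other, while 0.151% of all merged regions were. The nearest were a gene body region of Itga7 at chr10:128955778-128956424 and a region of the Ncam1 downstream flank at chr9:49483414-49483783, each with a peak in 3 Nedd4L-cKO libraries and in 0 of the WT ones. Where they were called, their pileup percentiles were 33.1 to 42.0 and 54.5 to 59.2, and their fold percentiles 1.6 to 3.5 and 1.1 to 2.1. Leaving out Nedd4L-cKO replicate 2 or replicate 1 makes 1 such region, at Itga7 and Ncam1 respectively. With fewer libraries the criterion is easier to meet, and the 0.151% holds for the full set only.

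Peaks per locus were counted next. In total the 10 loci held 89, 100, 89 and 101 peaks in the Nedd4L-cKO libraries and 93, 92 and 93 in the WT libraries, or 94.8 ± 6.65 (SD, n = 4) and 92.7 ± 0.577 (SD, n = 3), and the groups overlapped. The Itga7 locus was the only one without overlap, with 14, 14, 15 and 14 peaks in Nedd4L-cKO and 13, 13 and 13 in WT (difference 1.25, two-sided exact permutation p = 0.0286, unadjusted, the smallest that 4 against 3 libraries can give). Of the 17792 protein-coding genes with a peak in their locus, 0.5% had an unadjusted exact p under 0.05. The surplus was made up of the Itga7 region named above and of a gene body region at chr10:128950363-128950675 called in Nedd4L-cKO replicates 2 and 3 only.

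With the gene span alone, the difference at Itga7 was again 1.25 (exact permutation p = 0.0286). Taking the same number of peaks of highest fold enrichment from every library, it was 2.58 (exact permutation p = 0.371). Counting only broad peaks that hold a narrow peak, the difference was -0.17 peaks (exact permutation p = 1.0), and at a -log10 q of at least 5 it was 0.83 (exact permutation p = 0.629). Within lane 1, without WT replicate 3, it was 1.25 (exact permutation p = 0.0667, the smallest that 4 against 2 can give). The other 9 loci had unadjusted exact permutation p between 0.143 (Cd34, with 6, 6, 5 and 6 peaks in Nedd4L-cKO and 5, 5 and 5 in WT) and 1.0 (Itgb1).

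**Figure D3:**
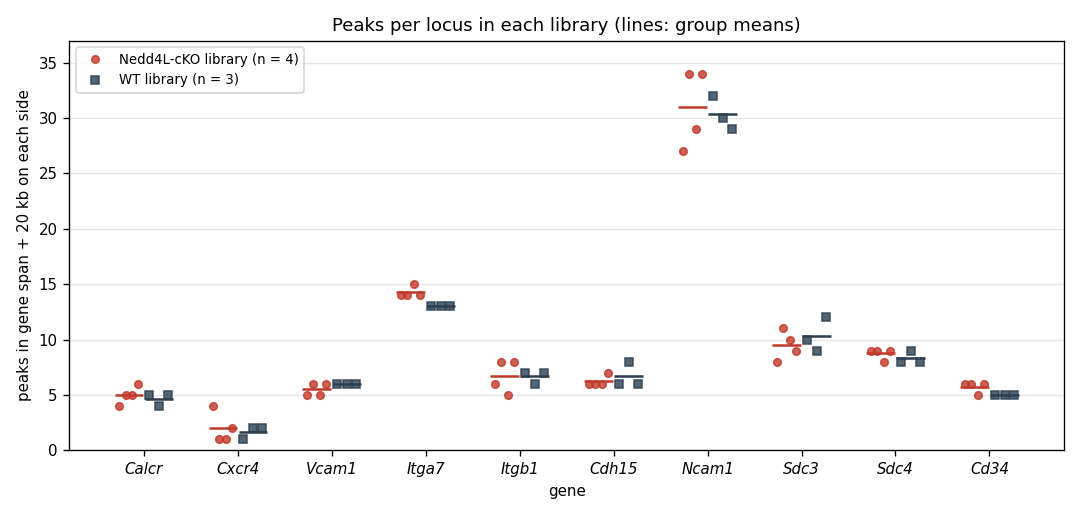
Number of peaks overlapping each gene's span plus 20 kb, with 1 point per library (Nedd4L-cKO, n = 4; WT, n = 3) and a line at each group mean. The Itga7 counts are 14 or 15 in Nedd4L-cKO and 13 in WT, and the counts of the other 9 loci overlap between the genotypes.

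For the 71 shared regions, the genotypes were compared by limma on normal scores of the ranks in each library, where 1 unit is 1 SD of the ranks. The fit covered all 53245 regions called in every library, and p-values were adjusted over all of them by the Benjamini-Hochberg method. By fold enrichment, 0 of the 71 regions passed an adjusted p of 0.05, as did 0.0% of all regions, and 2 (2.82%) had an unadjusted p under 0.05, against 3.98% of all. By pileup the counts were 0, against 0.0% of all, and 2 (2.82%), against 2.71%. The unadjusted shares of the 10 loci were thus near those of the whole set or below.

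The shifts were small beside their errors. By fold enrichment 38 of the 71 regions had a higher mean score in Nedd4L-cKO and 33 a lower one, with a median of 0.03 units against 0.01 over all shared regions. The median absolute shift was 0.12 units (0.16 over all), and the median SE of the 71 regions was 0.23 units. The promoter regions ranged from -0.29 ± 0.17 (SE) units at Sdc3 to 0.26 ± 0.25 at Cd34. The Calcr promoter region shifted by -0.11 ± 0.19 units and that of Itga7 by 0.09 ± 0.18, each within 1 SE. Shifts of this size were not detectable with 7 libraries, and the values do not show that the genotypes are equal.

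Groups of fold ranks did not overlap in 3 of the 71 regions (4.23%, against 4.76% of all shared regions): the Sdc3 promoter, a Cdh15 flank region and an Sdc4 gene body region. The Cdh15 region, 21.8 kb from the TSS at chr8:122869446-122870809, had fold percentiles of 20.1, 17.1, 21.3 and 30.8 in Nedd4L-cKO and 7.50, 16.8 and 5.80 in WT. Its shift was 0.44 ± 0.19 units (SE, limma unadjusted p = 0.0442, adjusted p = 1.00), and its pileup percentiles, 56.8 to 62.8 and 53.7 to 57.6, overlapped. It was also the strongest shared region of the Cdh15 locus outside the merged promoter region, which itself reached beyond the promoter window.

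The Sdc4 region, 15.9 kb into the gene at chr2:164426982-164427664, was among the lowest of all peaks by fold. Its fold percentiles were 0.014, 0.025, 0.027 and 0.039 in Nedd4L-cKO and 0.12, 0.073 and 0.28 in WT. Its shift was -0.52 ± 0.18 units (SE, limma unadjusted p = 0.0169, adjusted p = 1.00), while its pileup percentiles of 86.8 to 92.8 and 86.8 to 93.3 overlapped. The shift in normal scores is thus one between ranks at the very bottom of the fold scale.

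Beside these, the lowest unadjusted p in either direction belonged to the Vcam1 gene body region 15.3 kb from the TSS and to a Cd34 flank region. At Vcam1 the fold percentiles were 47.8, 21.2, 61.2 and 43.2 in Nedd4L-cKO and 23.5, 24.0 and 24.8 in WT, and overlapped through Nedd4L-cKO replicate 2. The shift was 0.53 ± 0.26 units by fold (SE, limma unadjusted p = 0.0715) and 0.32 ± 0.10 by pileup (limma unadjusted p = 0.0103, adjusted p = 1.00). At Cd34 the region 23.5 kb from the TSS, at chr1:194961917-194962733, had fold percentiles of 75.8, 57.5, 51.4 and 69.7 in Nedd4L-cKO and 90.0, 95.3 and 58.4 in WT. Its shift was -0.77 ± 0.37 units (SE, limma unadjusted p = 0.0633, adjusted p = 1.00), and WT replicate 3, the library on lane 2, lay among the Nedd4L-cKO libraries. Within lane 1, without that library, the shift at Cd34 was -1.24 ± 0.27 units (SE, limma adjusted p = 1.00), and those of the Vcam1, Cdh15 and Sdc4 regions were 0.52 ± 0.31, 0.33 ± 0.21 and -0.42 ± 0.20. The Cd34 region had been picked by its low p in these data, and WT replicate 3 was its lowest WT library. A larger shift follows from leaving that library out, and the error then rests on fewer libraries. The fold percentiles at Cd34 no longer overlapped (51.4 to 75.8 in Nedd4L-cKO, 90.0 and 95.3 in WT), as in 12.5% of all shared regions in that setting.

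**Figure D4:**
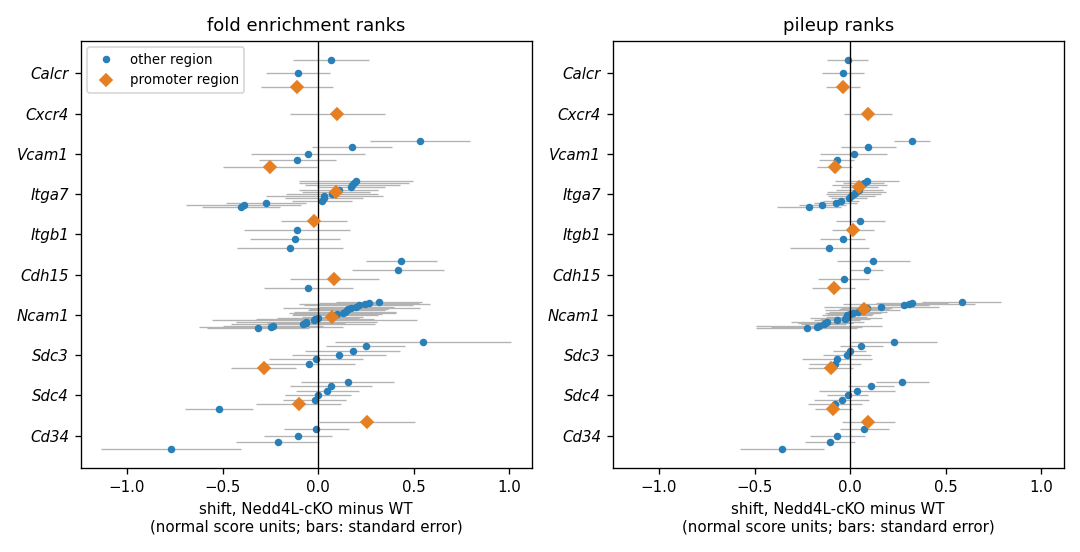
Shift of each of the 71 shared regions, Nedd4L-cKO (n = 4) minus WT (n = 3), in normal score units by fold enrichment (left) and pileup (right), with bars of 1 standard error from limma; diamonds are promoter regions. The shifts run from -0.77 to 0.55 units by fold and from -0.36 to 0.58 by pileup, and 0 of the 71 pass an adjusted p of 0.05 by either measure.

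Relatives and partners of the 10 proteins were examined in the same way. Of 20 such genes, 18 had a promoter peak in all 7 libraries, against 59.7% of the protein-coding genes, among them Calcrl and the receptor activity modifying proteins Ramp1 and Ramp2, the alpha subunits Itga4 and Itga9 that bind VCAM1, the syndecans Sdc1 and Sdc2, the chemokine Cxcl12 and its other receptor Ackr3. Ramp3 had one in 6 libraries, with a median pileup percentile of 9.69, and Itgav in none. Sdc2 had the highest median pileup percentile of the syndecan relatives (95.9), and its fold percentile (87.1) lay well above those of Sdc3 and Sdc4. Among the 18 promoter regions tested, 0 passed an adjusted p of 0.05 in limma, 9 had a higher and 9 a lower mean fold score in Nedd4L-cKO, and 1 had an unadjusted p under 0.05, as did 3.98% of all shared regions. This was Calcrl, a receptor for CGRP and adrenomedullin, with a shift of -0.81 ± 0.33 units (SE, limma unadjusted p = 0.0337, adjusted p = 1.00).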

How the data were processed

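Nuclei of 5000 sorted MuSCs per library were tagmented by an OMNI-ATAC protocol and sequenced as read pairs. Per the study's methods and the labels, reads were trimmed with Trimmomatic 0.39, aligned to mm10 with BWA 0.7.17, filtered by mapping quality with SAMtools and freed of duplicates with Picard 2.26.3. The authors called broad peaks with MACS2 2.2.7.1 in each library separately, with no control, on single tags shifted and extended around the Tn5 cut. The deposited pileup is a signal, the tag coverage of a peak unscaled for depth. Fold enrichment was deposited as a ratio of this signal to the local background, and p-values and q-values were deposited as -log10. Because depth differed, peaks were ranked within each library before libraries were compared. The printed percentiles are among the peaks called in a library, so they still depend on how many it held. Nedd4L-cKO replicate 4, the deepest library, held the most peaks (79158). The tables of deposited broad and gapped peaks hold the same peaks; the gapped ones marked which hold a narrow peak.

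Gene spans came from RefSeq on GRCm38.p6, with strands from the RefSeq promoter table (17491 genes) or from GENCODE by symbol (3945 genes), and 21436 of 21883 protein-coding genes had a TSS. The 2 mitochondrial peaks per library were left out. Peaks overlapping by at least 1 bp were merged into regions, and normal scores of ranks were compared with limma 3.58.1 in R 4.3.3 (lmFit, eBayes). Peak counts were compared by two-sided exact permutation over the 35 assignments of 4 and 3 libraries. All 7 libraries entered each comparison without covariates, and the study gives 4 Nedd4L-cKO and 3 WT mice for them. That each library came from 1 mouse is not given in the sources used here, so p-values measure only the spread between these libraries. The limma fit was checked on simulated regions with known shifts. Alternatives were other windows, a -log10 q of at least 5, peaks with a narrow peak, other limma settings and leaving out each library. Another took equal numbers of peaks from every library, those of highest fold enrichment. The genes, gene lists and tests were chosen with earlier results of these data known. The named regions are each gene's promoter region, its strongest other region called in all libraries by median pileup percentile, and the 2 regions of lowest unadjusted limma p in each direction by fold; others named for their calls or overlap were chosen after their values were seen. Python 3.11.15 was used with numpy 2.4.6, pandas 2.3.3, scipy 1.17.1 and matplotlib 3.10.9. The result of 1 further list of marker genes is not reported here.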

Additional observations from a re-analysis of the deposited data

Results flagged for a closer look

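Among 35 measures of the 10 loci, 6 had a Nedd4L-cKO library that stood far from the other 3 by the 95% limit of Dixon's test: 2 of 24 percentiles, where chance flags about 1 in 20 groups, and 4 of 11 peak counts. The 3 WT libraries are too few for this test.

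In replicate 3 the fold percentile of the Calcr promoter was 38.2, against 55.1 to 58.1 in the other Nedd4L-cKO libraries. In the same library the pileup percentile of the Sdc4 promoter was 98.5, against 99.0 in each of the other 3. The remaining 4 are counts that differ by 1 peak from 3 equal counts: 15 peaks in the Itga7 locus (others 14), 8 in the Sdc4 locus (others 9) and 5 in the Cd34 locus (others 6), all in replicate 3, and 7 in the Cdh15 locus (others 6) in replicate 4. With 3 tied counts the gap equals the whole range whatever its size, so the rate of chance flags does not hold for these 4.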

How the results depend on the processing

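With 4 against 3 libraries, limits were set by the number of libraries and by peaks whose depth is known only per library. No region of the 10 loci passed an adjusted p of 0.05 in limma by either measure under any alternative run, and the promoter count stayed at 10 with wider or narrower windows, with narrow peaks required and without any 1 library (10 to 10). It was 6 at a -log10 q of at least 5 and 6 with equal numbers of peaks per library. The shares of all protein-coding promoters were there 50.1% and 57.3%. The shared regions of the loci were then 28 of 62 and 54 of 113, below the 51.5% and 53.7% of all merged regions. Non-overlapping fold ranks were found in 3 regions (4.76% of all shared regions), in 1 by pileup (3.6%), and in 4 to 10 of 71 to 76 when 1 library was left out (8.54% to 12.5% of all shared regions): 6, 5, 10 and 4 without Nedd4L-cKO replicates 1 to 4, and 5, 8 and 7 without WT replicates 1 to 3. Shared regions ran from 71 to 76 (53502 to 54822 in the whole series) and separating regions from 0 to 1 when 1 library was left out. The share of separating regions among all merged regions is not given for these settings, so their count cannot be read as one about the 10 loci.

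The difference in peaks at the Itga7 locus, 1.25, was 0.92 with 50 kb flanks, 0.83 at the stricter q, 2.58 with equal numbers of peaks, -0.17 with narrow peaks required and 1.00 to 1.33 without 1 library, and no longer passed an unadjusted p of 0.05 in any of these, while with the gene span alone it was again 1.25 (exact permutation p = 0.0286). Leaving out 1 library raises the smallest possible p above 0.05. The other loci had no call to lose, and these differences changed sign: Cxcr4 -0.083, Ncam1 -0.17 and Sdc4 -0.25 with the gene span alone; Itgb1 -0.33 and Sdc3 0.83 with 50 kb flanks; Vcam1 1.00, Ncam1 -0.33, Sdc3 0.42 and Cd34 -1.0 at the stricter q; Cdh15 0.33 and Ncam1 -0.25 with equal numbers; Ncam1 -1.08 and Sdc4 -0.42 with narrow peaks required. Without 1 library the ranges were -0.33 to 0.67 at Cxcr4, -0.33 to 0.67 at Itgb1, -0.75 to 0.25 at Cdh15 and -0.33 to 2.00 at Ncam1. The causes were not tested.

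Of the promoter shifts by fold, Itgb1 turned to 0.015 by pileup ranks and to 0.0058 with log2 tags as a covariate, and Cdh15 to -0.085 by pileup ranks. The Cdh15 region takes in peaks inside and beyond the promoter window, so its shift is not that of the promoter peak alone. Without 1 library the ranges were -0.17 to 0.0065 at Calcr, -0.041 to 0.29 at Cxcr4, -0.097 to 0.036 at Itgb1, -0.064 to 0.21 at Cdh15 and -0.18 to 0.078 at Sdc4. The other 5 promoter regions and the 4 regions of lowest p kept their direction.

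Libraries with the same replicate number did not deviate together (r of -0.12, 0.03 and -0.12 over 53245 regions for numbers 1 to 3). Between libraries of unlike number r ran from -0.15 to 0.15. The deviations were taken from group means, which ties those of a group to each other. These r therefore cannot decide whether the numbers pair the libraries. With a replicate block, 0 regions of the loci passed by either measure, the Itga7 difference was 1.33 and lost its call (exact permutation p = 0.25, the smallest for 3 pairs), the Itgb1 and Ncam1 differences were -0.33 each and the Itgb1 promoter shift was 0.036.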

Other observations

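Other relatives of the 10 proteins stood at widely different heights. The podocalyxins Podxl and Podxl2, sialomucins of the CD34 family, had promoter peaks with median pileup percentiles of 81.7 and 80.4, both above the 60.0 of Cd34, and median fold percentiles of 77.4 and 78.3. Ncam2, the other NCAM gene, stood at a median pileup percentile of 23.8, against 98.2 for Ncam1. Cdh4 and Cdh11 stood at 86.3 and 48.2, against 98.1 for Cdh15. Ackr3, the other receptor of CXCL12, resembled Cxcr4 in a high pileup percentile (91.8) beside a low fold percentile (15.5). These are medians over the 7 libraries, given without a test.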
